A study of Mus musculus with 12 samples.

Results

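The data described here are 6 microarrays of brown adipose tissue (BAT) from *Il18*-/- mice, 3 from mice at 12 weeks and 3 from mice at 6 weeks of age. They are every array whose label gives the interleukin-18 knockout, and make up 6 of the 12 arrays of the series. The other 6 arrays carry BAT of *Il18*+/+ mice at the same ages, so that genotype and age form 4 groups of 3 arrays, each labelled a biological replicate. RNA of whole BAT was hybridised to one-colour Agilent arrays, and no group was treated. The labels give BALB/c as the strain of every sample, whereas the methods describe males on a C57Bl/6 background with littermates as controls. The labels state storage in RNAlater and isolation with miRNeasy, and the methods state liquid nitrogen and Sepasol. According to the methods all mice were killed at the same hour of the day, and neither source says which stretch of *Il18* the knockout removes.

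Brown fat burns fatty acids to make heat. Uncoupling protein 1, encoded by *Ucp1*, lets protons flow back into mitochondria without making ATP, and noradrenaline switches heat production on through cyclic AMP and, in part, through the thyroid-hormone-activating deiodinase encoded by *Dio2*. Like most tissues, BAT also runs a circadian clock, in which *Arntl* and *Clock* drive genes that carry E-boxes, among them their own repressors, so that the level of each clock gene depends on the time of day.

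Values are log2 intensities relative to the 75th percentile of the spots well above background on the same array, so that 0 marks that percentile, and a change is the mean at 12 weeks minus the mean at 6 weeks of age. Of 59305 spots per array, 36371, 30433 and 33060 were well above background on the 3 arrays of 6 weeks, and 32904, 29619 and 31839 on the 3 of 12 weeks, with no spot saturated. The first 6-week replicate had the most such spots of all 12 arrays. Pearson's r between knockout arrays, taken across probes, which are not independent replicates, ran from 0.977 to 0.992. The third 6-week replicate lay on the same slide as the 3 arrays of 12 weeks, and the other two lay on the slide of the *Il18*+/+ arrays. With the slide as a block, the change of a gene therefore equals the difference within the shared slide, between the 3 arrays of 12 weeks and that 1 array of 6 weeks, and is called the change within the slide. The p-values, from limma, measure the spread between arrays, whose number limits the precision. In whole tissue, fewer cells of a type and less RNA per cell cannot be told apart.

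The probe for *Il18*, at chr9:50389761-50389820 of the mm9 build, stood at -3.58, -4.50 and -4.19 at 6 weeks and at -4.13, -4.38 and -4.57 at 12 weeks of age. The ages overlapped, and all 6 arrays were well above background. Its change was -0.27 ± 0.30 (SE, n = 3 per age, limma adjusted p = 0.629). In *Il18*+/+ BAT the probe stood at -4.92, -4.93 and -4.21 at 6 weeks and at -3.58, -4.44 and -3.56 at 12 weeks. The genotypes thus overlapped at each age. Whether the probe lies in the deleted stretch is unknown, so it checks nothing about the labels, which alone give the genotype.

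The comparison asks how the BAT transcriptome differs between 6 and 12 weeks of age in mice without interleukin-18. Most genes that passed the test fell with age, a split that depended on the scaling, and the genes of the circadian clock were the list with most members that rose. Deiodinase 2, the fatty-acid synthesis regulator *Srebf1*, collagens and several adipocyte genes fell, whereas no gene of fatty acid oxidation or of the respiratory chain passed the test. Of 28748 probes tested, 519 (1.81%) had a limma adjusted p below 0.05, 72 higher and 447 lower at 12 weeks, and 5782 had an unadjusted p below 0.05. Taking each gene by its brightest probe, 59 of 21333 genes (0.277%) rose and 348 (1.63%) fell. The 3 values of 12 weeks lay above all 3 of 6 weeks for 484 genes (2.27%) and below them for 3421 (16%). At an unadjusted p below 0.05, 526 genes (2.47%) were higher and 3843 (18%) lower, and the counts at that level in each list stand against these shares.

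The whole distribution was shifted, with a median change of -0.21 over the probes tested, and changes of lists are therefore also given relative to it. The split depended on the scaling. Of the probes past the test, 13.9% were higher at 12 weeks, compared with 45.7% of 2673 when the percentile was taken over all probes and 53.9% of 2663 after quantile normalization. Setting the median of the tested probes equal, an alternative chosen after seeing the data, gave 2619 probes, 49.8% of them higher. These are the 3 other scalings referred to below. Without the first 6-week replicate the median change was -0.04, with 311 probes past the test, 141 higher and 170 lower. Leaving out the second or the third 6-week replicate gave 813 and 1048 probes. Without the second or without the third 12-week replicate there were 117. Of the wild-type arrays, which enter the same estimate of the spread, leaving out the first, the second or the third 6-week replicate gave 319, 280 and 288.

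All 519 probes kept their direction within the slide, where the median change of all probes was -0.15. The arrays of that slide also entered the test that chose the 519, so agreement in direction was largely built in. With the slide as a block, 44 probes passed the test, 10 higher and 34 lower, of which 31 were among the 519. Fewer passed when the change within the slide was tested with the spread of the unblocked fit to all 12 arrays. The genes with a blocked call that also rose in the first test were *Dbp*, *Pik3ip1*, *Gadd45b*, *Syne3*, *Sgo2a* and *Kifc1*. For the last pair the 6-week signal on the shared slide was below background, and *Kifc1* was admitted to the test by its 12-week knockout arrays alone. *Gadd45b*, which encodes a stress-induced regulator of growth arrest and was chosen after its values were seen, stood at -2.53, -3.01 and -3.12 at 6 weeks and at -0.24, -1.04 and -1.22 at 12 weeks. Every 12-week array was above every 6-week array. It rose by 2.05 ± 0.27 (limma adjusted p = 0.0036), and by 2.29 within the slide.

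Clock genes had the highest median of all lists in the first test. Of 18 tested members, 8 rose and 2 fell, with a median change of 1.05, which was 1.26 above that of all tested genes and between 0.76 and 1.38 above it under the alternatives, every scaling included. The 3 values of 12 weeks lay above those of 6 weeks for 10 members and below them for 3. Within the slide the median was 1.11, below the 1.31 of the skeletal muscle markers there. The calls were less stable than the median. With the slide as a block 1 rose and 0 fell, and without a filter on dim probes 2 rose and 0 fell. Without the second 12-week replicate 4 rose and 0 fell, without the third 2 rose and 0 fell, and without the first 4 rose and 2 fell. Under each of the 3 other scalings 10 rose and 2 fell. In *Il18*+/+ BAT the same 18 genes had a median change of -0.33.

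The output genes of the clock, the transcription factors *Dbp*, *Tef* and *Hlf* of the PAR bZIP family, all rose. *Dbp* stood at 0.36, 0.28 and -0.41 at 6 weeks and at 3.45, 3.08 and 3.72 at 12 weeks of age. *Hlf* stood at -1.65, -1.35 and -1.41 at 6 weeks and at -0.35, 0.11 and 0.05 at 12 weeks. *Tef*, the brightest tested member, stood at 2.43, 2.48 and 2.23 and then at 3.54, 3.08 and 3.48. For each of them all arrays of 12 weeks were above all arrays of 6 weeks. *Dbp* rose by 3.34 ± 0.35 (SE, limma adjusted p = 0.00119), the largest rise of any gene measured at both ages, and by 3.83 within the slide. *Hlf* rose by 1.41 ± 0.22 (limma adjusted p = 0.0102) and *Tef* by 0.99 ± 0.21 (limma adjusted p = 0.0366). The call of *Dbp* held in all 12 fits that left out 1 array each, that of *Hlf* in 10 and that of *Tef* in 4.

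Some of the clock's repressors rose as well, while others did not pass the test or, like *Nfil3*, fell. *Nr1d1* and *Nr1d2* encode the REV-ERB nuclear receptors, which repress *Arntl*. *Nr1d2* stood at -0.80, -1.08 and -0.74 at 6 weeks and at 0.78, 0.46 and 0.65 at 12 weeks. *Nr1d1*, chosen after its values were seen, stood at -1.28, -1.84 and -1.33 and then at 0.06, -0.34 and -0.50. Neither overlapped between the ages. *Nr1d2* rose by 1.51 ± 0.19 (limma adjusted p = 0.00264) and *Nr1d1* by 1.23 ± 0.26 (limma adjusted p = 0.0363). *Bhlhe40*, a basic helix-loop-helix repressor that binds E-boxes, stood at -1.03, -2.21 and -1.45 at 6 weeks and at 0.84, -0.04 and 0.77 at 12 weeks, again without overlap. It rose by 2.09 ± 0.34 (limma adjusted p = 0.0117). *Cry2*, a cryptochrome chosen after its values were seen, stood at 1.04, 0.24 and 0.15 and then at 1.84, 1.44 and 1.76. All 3 values of 12 weeks were the higher ones, and it rose by 1.21 ± 0.23 (limma adjusted p = 0.0253).

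For the clock repressor *Ciart* and for 1 of the probes of *Bhlhe41*, no array of 6 weeks was well above background. Where no array of an age is well above background, the fold is a lower bound, taken against the higher, on each array, of the probe's own signal and the lowest signal among probes well above background. *Ciart*, which represses the activity of *Arntl* and *Clock*, stood at -8.17, -7.80 and -9.06 at 6 weeks, not well above background on any array, and at -3.56, -5.85 and -4.33 at 12 weeks, well above it on all 3. It was at least 3.97-fold higher at 12 weeks (limma adjusted p = 0.0252). That bound, 1.99 on the log2 scale, became 2.62 without the second 12-week replicate and 1.48 without the first. Without the second 12-week replicate its measured change, 3.76, became 4.40. Background correction by normexp, whose added offset of 50 shrinks the changes of dim probes by construction, gave 1, below the bound of 1.99. The call of *Ciart* was lost without a filter and with the slide or the replicate block. It held in 9 of the 12 fits without 1 array, but not without the first 6-week, the first 12-week or the third 12-week replicate. The dimmer probe of *Bhlhe41*, the paralog of *Bhlhe40*, stood at -6.80, -8.80 and -7.02 at 6 weeks, on no array well above background, and at -4.73, -5.63 and -4.81 at 12 weeks. That probe was at least 2.86-fold higher at 12 weeks (limma adjusted p = 0.0172), and without the second 6-week replicate its measured change, 2.49, became 1.86. By normexp it was 0.66, below the log2 bound of 1.52, and did not pass (limma adjusted p = 0.103). After quantile normalization it was 3.19. The call was also lost without a filter, with the slide as a block, with the mean of the gene's probes and without the third 12-week replicate. The probes of this gene disagreed, since the brighter, well above background on 2 of 3 arrays of 6 weeks, differed by 1.11 (limma adjusted p = 0.279).

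*Arntl*, the activator that pairs with *Clock*, and *Nfil3*, a repressor that competes with *Dbp* for its sites, went the other way. *Arntl* stood at -0.25, -1.37 and -0.98 at 6 weeks and at -2.16, -2.82 and -3.20 at 12 weeks. *Nfil3*, chosen after its values were seen, stood at 1.20, 1.08 and 1.49 and then at -0.44, -0.50 and -0.39. Every 12-week array was below every 6-week array for both. *Arntl* fell by 1.86 on the log2 scale (SE 0.38, limma adjusted p = 0.0318) and *Nfil3* by a change of -1.70 ± 0.29 (limma adjusted p = 0.013). *Arntl* rose in *Il18*+/+ BAT, with a change of 3.41 (limma adjusted p = 0.00312), and its age effects differed between the genotypes by -5.26 (limma adjusted p = 0.000506).

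The clock genes that follow did not pass the test, and all of them were chosen after their values were seen. *Per3* and *Rora* did pass under each of the 3 other scalings, and *Cry1* with the replicate block. The period genes *Per2* and *Per3*, which encode repressors, had changes of 1.18 (limma adjusted p = 0.111) and 0.98 (limma adjusted p = 0.0864), and neither overlapped between the ages. *Per1* stood at 2.53, 1.85 and 1.84 at 6 weeks and at 1.86, 1.73 and 2 at 12 weeks, with overlap. Its brighter probe differed by -0.21 (limma adjusted p = 0.659), and its dimmer probe, well above background on 2 arrays of 6 weeks and on no 12-week array, did not pass either (limma adjusted p = 0.175). The cryptochrome gene *Cry1* differed by -1.01 without overlap (limma adjusted p = 0.128). *Clock* differed by -0.56 and overlapped, and so did the nuclear receptor gene *Rora*, at 0.56. The call of *Arntl* held in 9 of the 12 fits without 1 array, that of *Nr1d1* in 3 and that of *Cry2* in 9. The part of the hour of killing of single mice, which the labels do not give, was not tested.

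**Figure D1:**
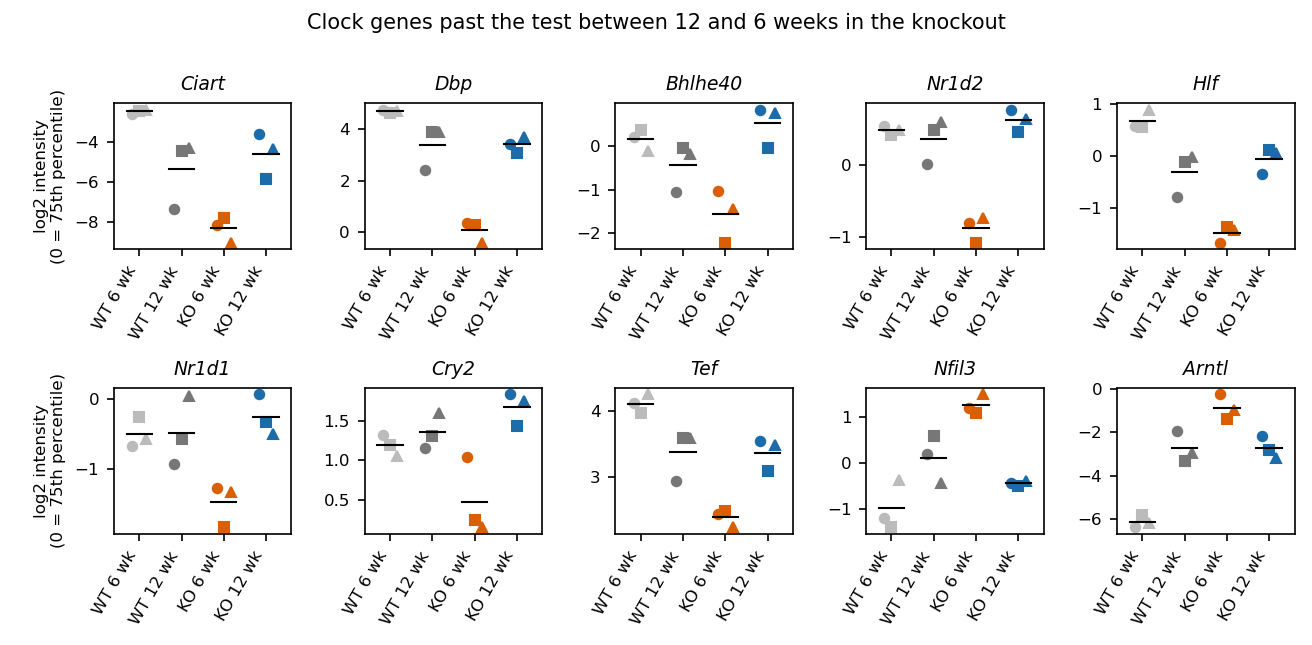
Log2 intensity of the 10 clock genes past the test in the 4 groups, with 1 point per array (circle, square and triangle for replicates 1, 2 and 3) and a line at each mean. In the knockout, *Dbp* went from between -0.41 and 0.36 at 6 weeks (orange) to between 3.08 and 3.72 at 12 weeks (blue), and *Arntl* lay lower on all 3 arrays of 12 weeks.

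The promoters of the clock genes were searched for the E-box CACGTG, which reads the same on both strands. The 250 bases before the start were available from RefSeq (build GRCm38.p6) for 15 of the 18 tested genes. The motif was held by 1978 of all 32851 promoters there (6.02%), and by 6 of the 20 promoters of these clock genes (30%). By genes it was 1854 of 27025, and 5 of the 15 clock genes, namely *Bhlhe41*, *Ciart*, *Cry1*, *Per1* and *Tef*. Of the 7 genes with a promoter in the table that rose by their brightest probe, 2 held it, and of the 2 that fell, 0. Of the 6 not called by that probe, 3 held it, namely *Bhlhe41*, *Cry1* and *Per1*. A match is a description and not a site of binding. The promoters of *Ciart* (chr3:95882229-95882478, minus strand, 3 matches), *Bhlhe41* (chr6:145865421-145865670, minus strand) and *Tef* (chr15:81802423-81802672 and chr15:81811164-81811413, plus strand) are shown because these genes had a probe that rose, with the motif in capitals.
Ciart: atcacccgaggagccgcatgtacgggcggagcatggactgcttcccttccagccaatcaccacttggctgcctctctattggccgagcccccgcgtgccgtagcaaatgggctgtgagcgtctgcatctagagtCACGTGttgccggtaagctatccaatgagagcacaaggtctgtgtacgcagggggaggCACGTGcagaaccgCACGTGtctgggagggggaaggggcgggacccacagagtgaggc
Bhlhe41: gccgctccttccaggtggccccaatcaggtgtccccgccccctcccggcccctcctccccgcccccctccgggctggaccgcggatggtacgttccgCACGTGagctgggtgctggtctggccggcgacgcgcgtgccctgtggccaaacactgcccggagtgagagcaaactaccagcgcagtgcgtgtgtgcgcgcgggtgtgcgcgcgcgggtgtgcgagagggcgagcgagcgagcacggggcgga
Tef, first start: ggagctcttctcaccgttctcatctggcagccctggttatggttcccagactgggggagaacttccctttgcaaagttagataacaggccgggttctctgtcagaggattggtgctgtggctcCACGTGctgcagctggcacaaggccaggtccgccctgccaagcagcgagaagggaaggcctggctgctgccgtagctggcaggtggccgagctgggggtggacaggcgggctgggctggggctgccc
Tef, second start: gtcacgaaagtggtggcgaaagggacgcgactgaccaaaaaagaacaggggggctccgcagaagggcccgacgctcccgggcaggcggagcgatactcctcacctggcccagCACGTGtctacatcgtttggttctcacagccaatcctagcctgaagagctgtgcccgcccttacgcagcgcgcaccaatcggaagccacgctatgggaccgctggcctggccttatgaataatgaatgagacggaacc

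Outside the clock list, *Syne3*, *Pik3ip1* and *Dmkn* had the largest rises past the test among genes well above background on all 6 arrays. *Syne3*, which encodes nesprin-3 of the outer nuclear membrane, stood at -3.80, -5.36 and -4.78 at 6 weeks and at -1.58, -1.67 and -1.44 at 12 weeks. *Pik3ip1*, an inhibitor of phosphatidylinositol 3-kinase, stood at -3.69, -3.04 and -2.43 and then at -0.16, -0.13 and 0.11. *Dmkn*, whose product dermokine is secreted and best known from skin, stood at -4.35, -4.50 and -4.22 and then at -1.81, -2.22 and -2.31. None of these overlapped between the ages, and the 12-week values of *Syne3* and *Pik3ip1* lay close together. *Syne3* rose by 3.08 ± 0.36 (limma adjusted p = 0.00209), *Pik3ip1* by 2.99 ± 0.30 (limma adjusted p = 0.000981) and *Dmkn* by 2.25 ± 0.30 (limma adjusted p = 0.00408). Within the slide the changes were 3.22, 2.37 and 2.11, and by normexp 2.27, 2.64 and 1.63. *Dmkn* did not pass with the slide as a block (limma adjusted p = 0.105).

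*Atoh1*, *Sgo2a* and *Kifc1* were well above background on 1 of the 3 arrays of 6 weeks and on all 3 of 12 weeks. *Atoh1*, a transcription factor of neural and secretory lineages, stood at -8.09, -8.65 and -6.07 and then at -4.05, -5.23 and -4.61. *Sgo2a*, which protects cohesion at centromeres, stood at -5.34, -7.22 and -8.01 and then at -4.58, -3.25 and -4.93. *Kifc1*, a kinesin of the mitotic spindle, stood at -5.84, -7.12 and -7.50 and then at -4.65, -4.83 and -4.58. The ages did not overlap, but the 6-week arrays were spread widely for each. *Atoh1* rose by 2.97 ± 0.55 (limma adjusted p = 0.0191) and by 1.44 within the slide. *Sgo2a* rose by 2.60 ± 0.55 (limma adjusted p = 0.037) and *Kifc1* by 2.13 ± 0.37 (limma adjusted p = 0.0144). These changes use signals below background. With each value held at the lowest signal of its array among probes well above background, they were 1.64, 2.07 and 1.8. Leaving out the third 6-week replicate, the only one of its age above background for *Atoh1*, gave 3.74 as measured and 1.74 so held. For *Sgo2a* the first was that array, and without it the change was 3.36 as measured and 2.57 so held. *Kifc1* was admitted to the test by its 12-week knockout arrays alone, the group in which it was high, whereas the other two were also admitted by wild-type arrays. By normexp the changes shrank to 0.81, 0.93 and 0.69, and *Kifc1* no longer passed (limma adjusted p = 0.0541). Within the slide both *Sgo2a* and *Kifc1* were below background on the only 6-week array, so that their changes there, 3.75 and 2.81 as measured, were at least 2.72 and at least 2.28. Without a filter none of them passed. Of the 12 fits without 1 array, *Atoh1* and *Kifc1* passed in 10 and *Sgo2a* in 5.

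Among genes of the reference table past the test, *Mfsd2a*, *Dhrs9* and *Noct* fell most. *Mfsd2a*, which imports lysophosphatidylcholine and with it long-chain fatty acids, stood at -2.19, -1.90 and -1.84 at 6 weeks and at -6.27, -6.04 and -5.44 at 12 weeks. *Dhrs9*, a short-chain dehydrogenase of retinoid and steroid metabolism, stood at -2.64, -3.36 and -2.24 and then at -5.94, -6.78 and -6.88, where 1 of 3 arrays was well above background. *Noct*, whose product nocturnin removes a phosphate from NADPH and is rhythmic in many tissues, stood at 2.41, 2.17 and 3.05 and then at -0.59, -1.08 and -1.03. The ages were far apart for all of them. *Mfsd2a* fell by 3.94 (SE 0.54, limma adjusted p = 0.00441), *Dhrs9* by a change of -3.79 ± 0.53 (limma adjusted p = 0.00448) and *Noct* by a change of -3.44 ± 0.30 (limma adjusted p = 0.00065). Within the slide they were -4.08, -4.29 and -3.95, by normexp -2.41, -1.96 and -3.37, and each passed in all 12 fits without 1 array. *Mfsd2a* did not pass with the slide as a block (limma adjusted p = 0.0794), while *Dhrs9* and *Noct* did.

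*Anxa8*, *Klhl25* and *Adamts4* also fell. *Anxa8*, a calcium-dependent membrane-binding annexin, stood at 1.55, 0.57 and -0.13 at 6 weeks and at -2.92, -2.04 and -2.80 at 12 weeks. *Klhl25*, an adaptor of a cullin ubiquitin ligase, stood at -0.55, -1.38 and -1.59 and then at -3.83, -4.15 and -4.07. *Adamts4*, a protease that cleaves aggrecan, stood at -1.10, -2.29 and -2.08 and then at -4.75, -4.19 and -4.91. Every 12-week array was below every 6-week array. The changes were -3.25 ± 0.44 for *Anxa8* (limma adjusted p = 0.00439), -2.84 ± 0.27 for *Klhl25* (limma adjusted p = 0.000797) and -2.79 ± 0.32 for *Adamts4* (limma adjusted p = 0.00189). The dimmer probe of *Adamts4*, well above background on no 12-week array, was lower there and also passed (limma adjusted p = 0.00237). The values of *Klhl25* are from its dimmer probe, which had the lower adjusted p, and its brighter probe fell by 1.66 (limma adjusted p = 0.00119). *6430571L13Rik*, a transcript without an assigned role, stood at -2.97, -2.78 and -3.72 and then at -6.35, -5.92 and -5.83. It fell by 2.88 (SE 0.28, limma adjusted p = 0.000797). By normexp the change of *6430571L13Rik* was -1.60 and that of *Adamts4* -2.08, and within the slide that of *Anxa8* was -2.45. The calls of *Anxa8* (limma adjusted p = 0.149) and *Adamts4* (limma adjusted p = 0.0584) were lost with the slide as a block.

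**Figure D2:**
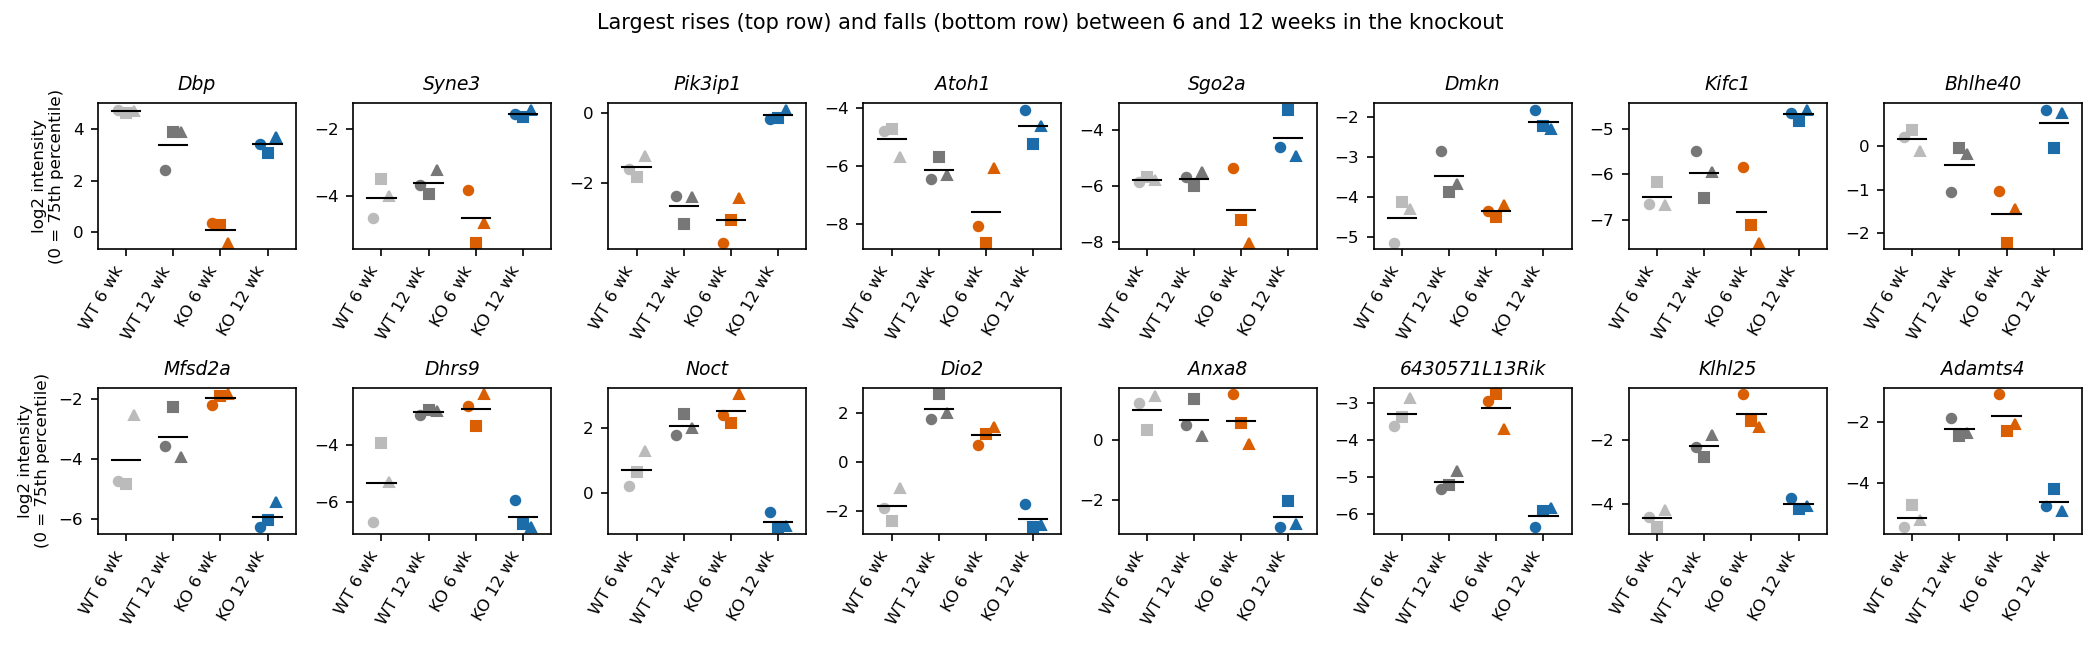
Log2 intensity of the 8 largest rises (top) and 8 largest falls (bottom) in the knockout, among reference-table genes past the test without overlap. Each gene has 1 point per array in the 4 groups and a line at each mean. The rank is by measured change, or by its bound where no array of an age was well above background. With values held at the lowest signal well above background, *Atoh1* (1.64) and *Kifc1* (1.8) would rank below *Gadd45b* (2.05), which is not shown. *Dio2* stood at between 0.68 and 1.44 at 6 weeks (orange) and between -2.67 and -1.73 at 12 weeks (blue) of age.

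Among genes of thermogenesis and brown fat identity, deiodinase 2 fell most. *Dio2* stood at 0.68, 1.14 and 1.44 at 6 weeks and at -1.73, -2.67 and -2.56 at 12 weeks of age. All 3 arrays of 12 weeks were far below those of 6 weeks. It fell by 3.40 (SE 0.37, limma adjusted p = 0.0014), by a change of -3.76 within the slide, and passed under every alternative and without any 1 array. *Prdm16*, a transcriptional coregulator of brown fat identity, stood at -1.66, -1.86 and -0.99 and then at -2.54, -2.66 and -2.97, without overlap. Its change was -1.22 ± 0.28 (limma adjusted p = 0.0498), just past the threshold. The call was lost with the percentile over all probes (limma adjusted p = 0.0716), after quantile normalization (limma adjusted p = 0.0774) and with medians set equal (limma adjusted p = 0.0753). It was also lost with the series table's values, with outlier spots kept, without a filter, with either block and with the knockout arrays alone, and it held in 2 of the 12 fits without 1 array.

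*Ucp1* itself did not pass the test. It stood at 7.71, 7.36 and 7.73 at 6 weeks and at 7.31, 6.56 and 7.09 at 12 weeks, so that all 12-week values were the lower ones. Its change was -0.62 ± 0.22 (limma adjusted p = 0.142), and -0.42 when the medians of the tested probes were set equal. *Ppargc1a*, the coactivator of mitochondrial genes, stood at 0.69, 0.80 and 2.27 and then at 0.37, 0.71 and 0.40, the third 6-week replicate being far above the rest. Its change was -0.76 ± 0.36 (limma adjusted p = 0.258), and -1.78 within the slide, where that array is the only one of its age. Its paralog *Ppargc1b* stood at -0.25, -0.31 and -0.10 and then at -0.84, -1.11 and -0.82, without overlap, at a change of -0.70 ± 0.17 (limma adjusted p = 0.0551), which passed under each of the 3 other scalings. *Cidea*, a lipid droplet protein and the brightest member of the list, differed by -0.10 (limma adjusted p = 0.795) and the β3-adrenergic receptor gene *Adrb3* by -0.17 (limma adjusted p = 0.741), both with overlap.

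*Elovl3*, a fatty acid elongase, varied more within an age than between them, at -3.27, -2.36 and -0.86 at 6 weeks and 0.45, -4.50 and -2.02 at 12 weeks. Its change was 0.13 ± 1 (limma adjusted p = 0.953). The brighter probe of the uncoupling protein gene *Ucp3* differed by -0.72 (limma adjusted p = 0.111) and the dimmer by -1.53 (limma adjusted p = 0.00441), so the probes disagreed on the call. The brown fat transcription factor genes *Lhx8* and *Zic1* had higher values, by 1.12 (limma adjusted p = 0.108) and 0.72 (limma adjusted p = 0.141), both without overlap, and both passed as rises under each of the 3 other scalings, where *Prdm16* did not. *Bmp7*, a growth factor of brown fat development, differed by 0.25, with overlap (limma adjusted p = 0.683). Of the 26 tested genes of the list, 0 rose and 2 fell in limma, and at an unadjusted p below 0.05 there were 3 higher and 7 lower. With the percentile over all probes 2 rose and 3 fell, and under the other two scalings 2 rose and 2 fell. Their median of -0.16 was 0.05 above that of all genes, and between -0.23 and 0.10 relative to it under the alternatives. *Fgf21* was not tested.

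*Dio2* is a textbook target of cyclic AMP, so its promoter was searched for the palindromic cyclic AMP response element TGACGTCA, which 508 of the 32851 promoters held (1.55%). The match lay in the 250 bases at chr12:90739039-90739288 (GRCm38.p6, minus strand, RefSeq) and is in capitals. Of the clock genes, *Hlf* held the motif. No value here bears on binding to it.
Dio2: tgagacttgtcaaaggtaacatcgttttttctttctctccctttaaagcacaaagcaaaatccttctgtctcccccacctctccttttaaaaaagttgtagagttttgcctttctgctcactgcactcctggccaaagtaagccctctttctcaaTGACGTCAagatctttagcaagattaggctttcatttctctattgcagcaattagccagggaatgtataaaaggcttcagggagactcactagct

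Genes of adipocyte differentiation and lipid storage fell in 5 cases and rose in 0 of the 25 tested, by limma. *Cebpb*, a transcription factor of early adipocyte differentiation, stood at 4.65, 4.02 and 4.55 at 6 weeks and at 3.06, 3.23 and 3.48 at 12 weeks. *Vdr*, the vitamin D receptor, stood at -3.28, -4.48 and -3.63 and then at -5.48, -6.51 and -6.20, where 2 of 3 arrays were well above background. *G0s2*, an inhibitor of adipose triglyceride lipase, stood at 4.32, 3.37 and 3.74 and then at 1.30, 2.07 and 2.64. None of them overlapped between the ages. *Cebpb* fell by 1.15 (SE 0.20, limma adjusted p = 0.0132), *Vdr* by a change of -2.27 ± 0.32 (limma adjusted p = 0.00445) and *G0s2* by a change of -1.80 ± 0.33 (limma adjusted p = 0.0181). *Cfd*, which encodes the secreted protease adipsin, stood at 7.66, 7.01 and 7.11 and then at 6.42, 6.46 and 6.33. It lay lower on all 12-week arrays and fell by 0.86 (SE 0.19, limma adjusted p = 0.0413), passing in 2 of the 12 fits without 1 array. *Agt*, the angiotensinogen gene, changed by -1.60 ± 0.30 (limma adjusted p = 0.0233). By normexp *Vdr* was at -1.04 and *Agt* at -0.82. With the slide as a block none of the 5 passed. Without a filter 1 member of the list fell, with the knockout arrays alone 1, without the first 6-week replicate 2, and without the second or the third 12-week replicate 1 and 3. Under each of the 3 other scalings 5 fell and 1 rose.

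The general adipocyte genes showed smaller differences. *Pparg*, the master regulator of adipocyte differentiation, stood at 4.29, 4.37 and 4.79 at 6 weeks and at 4.95, 4.58 and 4.82 at 12 weeks, with overlap, at a change of 0.30 (limma adjusted p = 0.396). The fatty acid binding protein gene *Fabp4* differed by -0.19 (limma adjusted p = 0.599) and the fatty acid transporter gene *Cd36* by -0.11 (limma adjusted p = 0.752). The leptin gene *Lep* stood at -1.04, -1.70 and -3.26 and then at -2.52, -1.63 and -1.56, fully overlapping, at a change of 0.09 (limma adjusted p = 0.939). *Apoc3*, an inhibitor of lipoprotein lipase, differed by -0.68 with overlap (limma adjusted p = 0.321). *Insig1*, which holds back the processing of sterol regulatory element binding proteins, stood at -0.14, -0.76 and -0.08 and then at 1.24, 0.16 and 0.91. It was higher without overlap, by 1.10 ± 0.33 (limma adjusted p = 0.102), and passed under each of the 3 other scalings. The list's median of -0.22 lay -0.01 from that of all genes, and between -0.09 and 0.04 under the alternatives. At an unadjusted p below 0.05 there was 1 higher and there were 6 lower.

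Fatty acid and triglyceride synthesis had 1 fall among 22 tested genes, that of its transcription factor *Srebf1*. It stood at 1.07, 0.26 and 0.49 at 6 weeks and at -0.69, -1.70 and -1.23 at 12 weeks. The ages did not overlap, and it fell by 1.81 (SE 0.32, limma adjusted p = 0.0145), and by a change of -1.70 within the slide. The call was lost with the slide as a block (limma adjusted p = 0.285), without a filter, and without the second or the third 12-week replicate. *Dgat2*, which makes triglycerides and was the brightest member, differed by -0.38 with overlap (limma adjusted p = 0.285). The median of the list, -0.39, was -0.18 from that of all genes but lay between -0.42 and 0.05 relative to it under the alternatives, so its side depended on them. At an unadjusted p below 0.05, limma gave 0 higher and 2 lower.

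Sterol synthesis had 2 falls and 0 rises among 22 tested genes, by limma, with 2 higher and 2 lower at an unadjusted p below 0.05. *Hmgcs1*, a synthase at the start of the mevalonate pathway, stood at 4.15, 3.68 and 4.11 at 6 weeks and at 3.45, 2.54 and 2.78 at 12 weeks. It was lower on every 12-week array. *Hmgcs1* fell by 1.06 (SE 0.24, limma adjusted p = 0.0445), and it passed in 2 of the 12 fits without 1 array, but not without a filter, with either block or with the knockout arrays alone. The list's median was -0.15, between -0.18 and 0.29 relative to all genes.

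Fatty acid oxidation and the respiratory chain with the citric acid cycle, the fuel side of heat production, had no gene past the test. Of 22 oxidation genes, limma gave 0 at an unadjusted p below 0.05 as well, and the median was -0.15, between -0.14 and 0.16 relative to all genes. The brightest member, the thiolase gene *Acaa2*, differed by -0.11 (limma adjusted p = 0.767). Of 24 respiratory chain and citric acid cycle genes, limma gave 0 past the test and 0 higher and 2 lower at an unadjusted p below 0.05. Their changes ran from -0.47 to 0.05 with a median of -0.16, between -0.04 and 0.12 relative to all genes. *Cox6a1*, a subunit of cytochrome c oxidase and the brightest member, stood at 8.46, 7.94 and 8.35 at 6 weeks and at 8.32, 7.76 and 8.17 at 12 weeks. The ages overlapped, and the second replicate was the lowest at each.

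Glucose and glycogen metabolism had 2 falls and 0 rises among 23 tested genes, by limma, with 0 higher and 3 lower at an unadjusted p below 0.05. *Ppp1r3c*, which targets a phosphatase to glycogen and so favours its synthesis, stood at 2.16, 2.08 and 2.19 at 6 weeks and at 1.34, -0.60 and 0.16 at 12 weeks. *Hk2*, the hexokinase that traps glucose in the cell, stood at 3.01, 2.27 and 2.61 and then at 1.88, 0.44 and 1.16. Both were lower without overlap, and for both the second 12-week replicate was the lowest. *Ppp1r3c* fell by 1.84 (SE 0.37, limma adjusted p = 0.029) and *Hk2* by a change of -1.48 ± 0.30 (limma adjusted p = 0.0315). Neither passed with the slide as a block (limma adjusted p of 0.323 and 0.387), nor did they without a filter, with the knockout arrays alone, or without the first 6-week, the second 12-week or the third 12-week replicate. *Ppp1r3c* was also lost with the replicate block, and *Hk2* without the second 6-week wild-type replicate. Of the 12 fits without 1 array, *Ppp1r3c* passed in 9 and *Hk2* in 8. The list's median was -0.34, and relative to all genes -0.13, between -0.31 and -0.03 under the alternatives.

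Collagens and periostin of the extracellular matrix fell. Of 21 tested matrix genes, 5 fell and 0 rose by limma, and 20 had a negative change, as did 76.3% of all genes. Without overlap 14 were lower, and at an unadjusted p below 0.05 there were 0 higher and 13 lower. *Col1a1*, a chain of fibrillar type I collagen, stood at 2.91, 2.17 and 2.05 at 6 weeks and at 1.27, 1.01 and 0.99 at 12 weeks. *Col3a1*, the chain of type III collagen, stood at 4.12, 3.44 and 3.36 and then at 2.61, 2.59 and 2.34. *Postn*, the matricellular protein periostin, stood at 1.25, 0.71 and 0.69 and then at 0.15, -0.18 and -0.15. The first 6-week replicate was the highest for each, and no ages overlapped. *Col1a1* fell by 1.29 (SE 0.25, limma adjusted p = 0.0253), *Col3a1* by a change of -1.13 ± 0.25 (limma adjusted p = 0.0406) and *Postn* by a change of -0.94 ± 0.21 (limma adjusted p = 0.0408). *Col1a2*, the other chain of type I collagen, changed by -0.98 ± 0.22 (limma adjusted p = 0.0447). The basement membrane chain *Col4a1*, chosen after its values were seen, changed by -0.86 ± 0.20 (limma adjusted p = 0.0486).

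*Sparc*, a collagen-binding glycoprotein and the brightest member of the matrix list, stood at 7.32, 6.74 and 6.91 and then at 6.83, 6.41 and 6.65. It overlapped and differed by -0.36 (limma adjusted p = 0.301). The list's median of -0.55 was -0.34 from that of all genes and lay between -0.51 and -0.27 under the alternatives, so that it did not change side under any scaling. Summed over the list, intensities in units of each array's 75th percentile were 266, 179 and 190 at 6 weeks and 172, 139 and 148 at 12 weeks. The calls rested on single settings and arrays more than the direction did. No member passed with the slide as a block, without a filter, with the knockout arrays alone, or without the first 6-week, the second 12-week or the third 12-week replicate, and with the replicate block 1 did. With the percentile over all probes 9 fell, and under each of the other two scalings 8 did. Of the 12 fits without 1 array, *Col1a1* passed in 9, *Postn* in 5, *Col3a1* in 4, *Col1a2* in 3 and *Col4a1* in 2. Markers of fibroblasts and preadipocytes had a median of -0.23, and their part in the result was not tested.

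Of 20 tested proliferation genes limma passed 0, with 1 higher and 1 lower at an unadjusted p below 0.05, at a median of -0.05, between 0.00 and 0.42 relative to all genes. *Ccnd1*, the cyclin of the early cell cycle, stood at -1.91, -2.65 and -2.74 at 6 weeks and at -3.40, -2.90 and -3.28 at 12 weeks, lower without overlap. Its change was -0.76 (limma adjusted p = 0.198). Of 17 imprinted or growth-network genes limma passed 0, with 1 higher and 5 lower at an unadjusted p below 0.05, at a median of -0.41, between -0.38 and 0.10 relative to all genes. The imprinted RNA *Meg3* stood at -0.43, -1.12 and -1.53 and then at -1.95, -1.95 and -2.24, also without overlap, at a change of -1.02 (limma adjusted p = 0.0858).

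**Figure D3:**
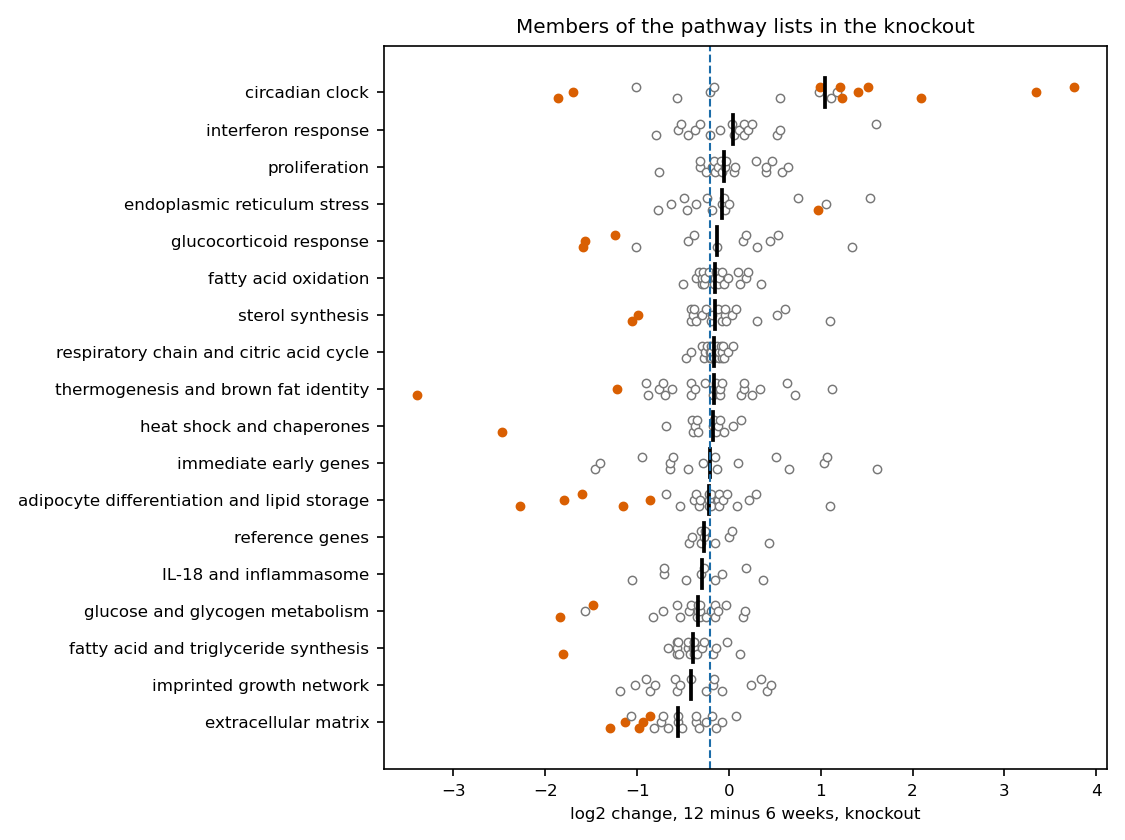
Log2 change between 12 and 6 weeks of age in the knockout for each tested member of the pathway lists, with members past the test filled in orange, a black bar at each list's median and a dashed blue line at the median of all genes, -0.21. The clock list has its median at 1.05 and the extracellular matrix list at -0.55.

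The interleukin-18 and inflammasome list had 10 tested members, and *Il18r1*, *Il18rap*, *Nlrp3* and *Il1b* were not tested. By limma 0 passed, with 0 higher and 4 lower at an unadjusted p below 0.05, at a median of -0.29, between -0.18 and 0.04 relative to all genes. *Irak4*, a kinase below the interleukin-18 and interleukin-1 receptors, stood at -3.71, -4.22 and -4.08 and then at -4.45, -4.87 and -4.82. It was lower without overlap, by a change of -0.71 (limma adjusted p = 0.0673), and passed under each of the 3 other scalings. Of 18 interferon response genes 0 passed in limma, with 2 higher and 0 lower at an unadjusted p below 0.05. Their median of 0.04 was 0.25 above that of all genes, and 0.17 to 0.37 above it under the alternatives. The chemokine gene *Cxcl10* stood at -3.04, -3.75 and -4.18 and then at -3.06, -1.25 and -1.87, with overlap, at a change of 1.60 (limma adjusted p = 0.0957).

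Stress genes moved in single members. *Hspa1a*, an inducible chaperone, stood at -1.25, -1.94 and -0.92 at 6 weeks and at -4.55, -3.35 and -3.64 at 12 weeks, without overlap. It fell by 2.47 (SE 0.30, limma adjusted p = 0.00228), by a change of -2.92 within the slide, and passed under every alternative. Its co-chaperone *Bag3* differed by -0.69 (limma adjusted p = 0.0713), which passed under each of the 3 other scalings. Of the 15 heat shock genes 1 fell and 0 rose, at a median of -0.17, between -0.22 and 0.09 relative to all genes, with 0 higher and 2 lower at an unadjusted p below 0.05 in limma. *Trib3*, a pseudokinase induced by the unfolded protein response, stood at 0.29, -0.51 and 0.19 and then at 1.18, 0.88 and 0.82. It rose by 0.97 ± 0.21 (limma adjusted p = 0.0398), without overlap, and passed in 4 of the 12 fits without 1 array, but not without a filter, with either block or with the knockout arrays alone. *Ddit3*, *Herpud1* and *Chac1*, further genes of that response, were higher without overlap but did not pass, at 1.06, 0.75 and 1.54 (limma adjusted p of 0.0544, 0.0615 and 0.105). *Ddit3* and *Herpud1* did pass under each of the 3 other scalings, by normexp and with signal required on all 12 arrays, and *Chac1* by normexp. Of the 15 endoplasmic reticulum stress genes 1 rose and 0 fell, at a median of -0.08, between 0.02 and 0.18 relative to all genes, with 4 higher and 3 lower at an unadjusted p below 0.05 in limma. Under each of the 3 other scalings 3 of them rose, with 1 fall except after quantile normalization, and by normexp 4 rose and 0 fell.

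Among 13 glucocorticoid response genes 3 fell and 0 rose by limma, with 1 higher and 4 lower at an unadjusted p below 0.05. *Cdkn1a*, the cell cycle inhibitor, stood at 1.87, 1.52 and 2.04 at 6 weeks and at 0.36, 0.25 and 0.05 at 12 weeks. *Sgk1*, a kinase of ion transport, stood at 2.76, 1.85 and 1.69 and then at 0.02, 0.72 and 0.86. *Errfi1*, an inhibitor of the epidermal growth factor receptor, stood at 1.95, 1.22 and 1.56 and then at -0.13, 0.47 and 0.67. For each, every 12-week array was the lower. *Cdkn1a* fell by 1.59 (SE 0.23, limma adjusted p = 0.00619) and passed in all 12 fits without 1 array. *Sgk1* changed by -1.57 ± 0.31 (limma adjusted p = 0.0285) and *Errfi1* by -1.24 ± 0.28 (limma adjusted p = 0.0447), passing in 8 and 2 of them. None of the 3 passed with the slide as a block or without a filter. The list's median was -0.13, between -0.15 and 0.23 relative to all genes.

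Immediate early genes differed between arrays more than between ages. Their summed intensity was 40.8, 11.7 and 10.1 at 6 weeks and 7.21, 31.4 and 15.9 at 12 weeks, highest on the first 6-week and the second 12-week replicate. *Nr4a1*, the brightest, stood at 4.69, 2.54 and 1.99 and then at 0.40, 4.17 and 2.84, and *Egr1* at -0.93, -2.54 and -3.25 and then at -1.96, 1.02 and -0.94. Both encode transcription factors induced within minutes of a stimulus, and both overlapped between the ages. Of 16 tested, limma passed 0, with 2 higher and 2 lower at an unadjusted p below 0.05, at a median of -0.21, between -0.21 and 0.55 relative to all genes. Of 10 reference genes limma passed 0, with 0 higher and 1 lower at an unadjusted p below 0.05. Their median was -0.27, between -0.10 and -0.01 relative to all genes. *Gapdh*, an enzyme of glycolysis, differed by -0.26 (limma adjusted p = 0.51) and the actin gene *Actb*, which overlapped, by -0.27 (limma adjusted p = 0.538). Under the alternatives, scalings included, no pathway list without a call had more than 3 members that rose or more than 2 that fell.

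Brown fat markers were present on all arrays. Their summed intensity, in units of each array's 75th percentile, was 897, 641 and 877 at 6 weeks and 798, 566 and 705 at 12 weeks, with *Cidea* the brightest. The ages overlapped. All 8 markers also belong to the thermogenesis list, and of them 1 fell, *Prdm16*, and 0 rose. That count turned with the scaling, since under each of the 3 other scalings 0 fell and 2 rose, *Lhx8* and *Zic1*. Of the white fat markers 3 were tested, of which *Agt*, also a member of the adipocyte list, fell. The median of the brown fat markers was -0.10 and that of the white fat markers 0.09, between -0.12 and 0.22 and between -0.56 and 0.68 relative to all genes.

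Markers of liver, a tissue not sampled, varied between the arrays of 12 weeks. *Alb*, the albumin gene, chosen after its values were seen, stood at -2.11, -1.97 and -1.96 at 6 weeks and at -1.99, -6.47 and -8.36 at 12 weeks, where 1 of 3 arrays was well above background. The first 12-week replicate thus sat with the 6-week arrays, and the other two lay far below. *Hpx*, the hemopexin gene, stood at -4.00, -4.15 and -3.91 and then at -4.74, -6.25 and -6.94, with 2 of 3 arrays of 12 weeks well above background. *Apoa1*, the main protein of high-density lipoprotein, stood at -5.57, -5.98 and -5.75 and then at -7.07, -8.57 and -8.95, on no 12-week array well above background. The first 12-week replicate was again nearest to the younger mice. *Apoa1* and *Alb* were admitted to the test by the 6-week knockout arrays alone, the group in which they were high, and *Hpx* also by wild-type arrays. *Hpx* fell by 1.96 (SE 0.43, limma adjusted p = 0.0422), but the call held in 1 of the 12 fits without 1 array. That was the fit without the first 12-week replicate, where the change was -2.57, and without the third 12-week replicate it was -1.47. It was also lost after quantile normalization (limma adjusted p = 0.0659), without a filter, with the slide as a block and with the knockout arrays alone. *Apoa1* was at least 2.04-fold lower at 12 weeks (limma adjusted p = 0.0195). By normexp *Hpx* was at -0.94, and *Apoa1*, at -0.48, did not pass (limma adjusted p = 0.248). The call of *Apoa1* was also lost without a filter, with the slide as a block, and without the first 6-week, the second 12-week or the third 12-week replicate. *Alb* differed by -3.59 ± 1.22 as measured (limma adjusted p = 0.132), and by -3.14 with values held at the lowest signal well above background. Without the first 12-week replicate its measured change was -5.40 and passed, and without the third it was -2.21. By normexp *Alb* passed as well, at -1.83 (limma adjusted p = 0.00433).

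Of 13 liver markers tested, all well above background on the 3 arrays of 6 weeks, 2 fell and 0 rose by limma, and 0 were higher and 11 lower at an unadjusted p below 0.05. The median was -2.66, and -2.87 within the slide, where 0 passed. Of the 13, 8 were admitted to the test by the 6-week knockout arrays alone, compared with 123 of all 21333 genes, so the counts and the median rest in part on markers picked for a high 6-week signal. With signal required on all 12 arrays 4 markers remained, at a median of -1.38, and with values held at the lowest signal well above background the median of the 13 was -2.36. Without the first 12-week replicate 11 fell, at a median of -3.81, and without the second or the third, or without the first 6-week replicate, 0 did. Normexp background correction gave 9 at a median of -1.29. Summed intensities were 15.4, 13.5 and 11.2 at 6 weeks and 12.3, 10.3 and 9.59 at 12 weeks, and *Cyp2e1*, the brightest, which fat also expresses, differed by -0.01 (limma adjusted p = 0.986). *Apoc3*, made mostly in liver, belonged to the adipocyte list and stood at 2.16, 1.52 and 2.16 and then at 2.08, 0.38 and 1.35. The part of liver RNA in the other results was not tested.

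Skeletal muscle, which adjoins BAT, varied between arrays in both ages. The summed intensity of its 15 markers was 107, 275 and 52.7 at 6 weeks and 160, 138 and 64 at 12 weeks, and *Tnni2*, a fast troponin gene, was the brightest. The slow myosin gene *Myh7* stood at 0.64, 3.22 and -1.81 and then at -1.32, 1.73 and -1.71. The second 6-week replicate was the highest and the ages overlapped. Limma passed 0 of the 15, and 0 at an unadjusted p below 0.05. Their median was -0.04, but 1.31 within the slide, whose only 6-week array had the lowest sum, and it lay between -0.34 and 1.46 relative to all genes under the alternatives. The part of muscle RNA in the changes within the slide was not tested.

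**Figure D4:**
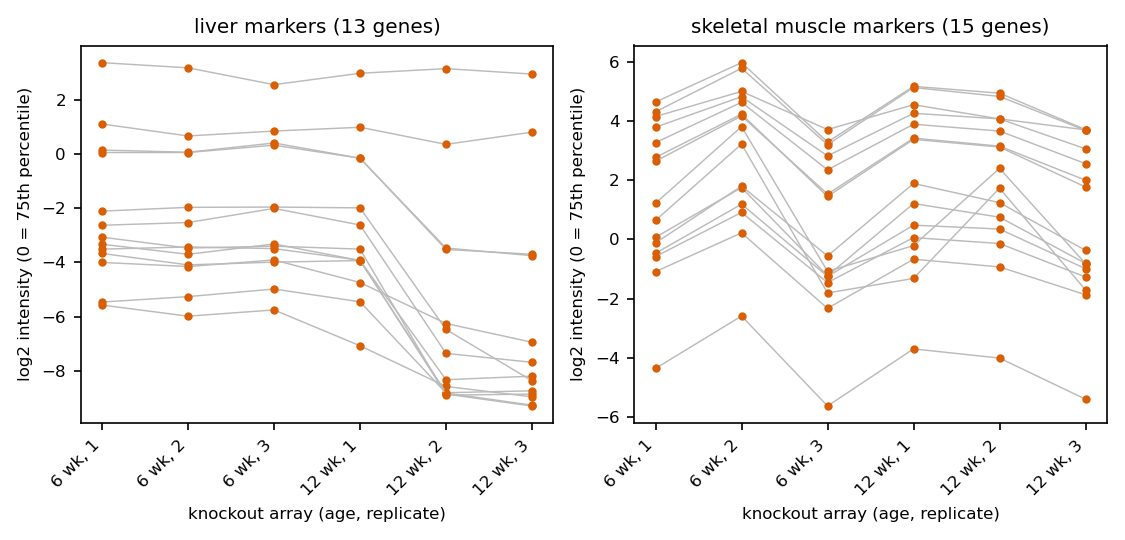
Log2 intensity of 13 liver and 15 skeletal muscle marker genes on the 6 knockout arrays, with a line joining the values of each gene. Most liver markers lay far lower on the second and on the third 12-week replicate, with *Alb* at -6.47 and -8.36, and most muscle markers were highest on the second 6-week replicate.

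Markers of other cells passed the test in no case. Limma passed 0 of 11 macrophage markers (median 0.04, 1 higher and 0 lower at an unadjusted p below 0.05), 0 of 10 T and NK cell markers (median -0.10, 0 higher and 2 lower) and 0 of 4 B cell markers (median 0.10, 0 higher and 1 lower). It passed 0 of 7 antigen presentation genes (median 0.13, none at an unadjusted p below 0.05), 0 of 5 neutrophil markers (median 0.00, 1 lower) and 0 of 5 mast cell markers (median -0.16, 1 lower). Relative to all genes the median of the macrophage markers lay between 0.19 and 0.57 under the alternatives, and that of the antigen presentation genes between 0.14 and 0.53. It also passed 0 of 7 erythroid (median -0.15), 0 of 10 endothelial (median -0.23, 2 lower at an unadjusted p below 0.05), 0 of 8 fibroblast and preadipocyte (1 lower) and 0 of 8 Schwann cell and nerve markers (median -0.12). Of 3 epithelial markers 0 passed (median -0.44, 2 lower at an unadjusted p below 0.05). Of 3 tested Y-linked genes 0 passed, with 1 higher and 1 lower at an unadjusted p below 0.05, and *Xist* was not tested. Under the alternatives, none of these marker lists had more than 1 member that rose or more than 2 that fell. The translation factor gene *Eif2s3y* stood at -0.53, 0.03 and 1.41 at 6 weeks and at 1.74, 1.17 and 1.56 at 12 weeks, and between 1.10 and 1.81 on the wild-type arrays, so that the first 2 knockout replicates of 6 weeks were the lowest. It differed by 1.19 (limma adjusted p = 0.118), and by 0.08 within the slide. The other two Y-linked genes did not share this. *Ddx3y* stood at 0.69, 0.16 and 0.47 and then at 0.24, -0.40 and 0.12, a difference of -0.45 (limma adjusted p = 0.242), and *Uty* differed by -0.52 (limma adjusted p = 0.297). The median of the list was -0.45.

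Set beside the age effect in *Il18*+/+ BAT, few of these genes passed in both. In the wild type 120 of 21333 genes (0.563%) passed, 95 higher and 25 lower. Of the 348 genes that fell in the knockout, 2 fell and 16 rose in the wild type, and 65.8% had a change of the opposite sign there, compared with 72.6% of all genes with a lower value in the knockout. Of the 59 that rose, 1 also rose, 0 fell and 33.9% had the opposite sign, compared with 23.1% of all genes with a higher value. The medians of all genes, -0.21 in the knockout and 0.15 in the wild type, lay on opposite sides of 0 under this scaling. The age effect itself differed between the genotypes for 400 genes (1.88%), 36 with a larger and 364 with a smaller value in the knockout. That split depended on the scaling, for by probes it was 43 and 533, compared with 503 and 689 with the percentile over all probes, 598 and 549 after quantile normalization and 553 and 616 with medians set equal. The 400 genes included 156 of the genes that fell and 18 of those that rose. The knockout arrays enter both comparisons, so the counts are not independent. *Cdkn1a* changed by 1.44 in the wild type (limma adjusted p = 0.0182), and *6430571L13Rik* fell there too, by a change of -1.83 (limma adjusted p = 0.0113), with no difference between genotypes past the test (limma adjusted p = 0.161). *Erdr1*, a stress-related gene, stood at 1.53, 1.17 and 1.69 and then at 2.38, 2.38 and 1.93 in the knockout. That was higher without overlap but not past the test (0.77, limma adjusted p = 0.334), beside a change of -4.85 in the wild type (limma adjusted p = 0.000416).

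How far single calls held was uneven. Of the 48 genes named here that passed, all 48 kept their direction under every alternative that gave them a value. The alternatives reuse the arrays of the first test, so that agreement was largely built in. Of the 48 genes, 17 passed in all 12 fits that left out 1 array. Without the third 12-week replicate 19 of them passed, without the second 21, and without the first 6-week replicate 27. With the slide as a block 12 passed, namely *Dbp*, *Syne3*, *Pik3ip1*, *Gadd45b*, *Sgo2a*, *Kifc1*, *Dio2*, *Noct*, *Dhrs9*, *Klhl25*, *Hspa1a* and *6430571L13Rik*. Of these, *Sgo2a* and *Kifc1* were below background on the only 6-week array of the shared slide. *Kifc1* was also admitted to the test only by the group in which it was high. Without a filter 16 passed, namely *Dbp*, *Syne3*, *Pik3ip1*, *Dmkn*, *Gadd45b*, *Nr1d2*, *Mfsd2a*, *Dhrs9*, *Noct*, *Dio2*, *Anxa8*, *Klhl25*, *Adamts4*, *6430571L13Rik*, *Hspa1a* and *Vdr*. Tested within the slide with the spread of the unblocked fit to all 12 arrays, fewer of the 48 passed than with the slide as a block.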

How the data were processed

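The authors hybridised each sample to 1 one-colour array and deposited Agilent Feature Extraction output (version 10.7.3.1 per the file headers; the methods name another) with intensity in linear units and a series table of the same values, which matched to within 0.498%; its column medians for the knockout arrays were 52.8, 32.5 and 23.7 at 6 weeks and 25.5, 27.4 and 21.3 at 12 weeks. From the deposited processed intensity, log2 was taken, control and outlier spots were left out, each array's 75th percentile of spots well above background was subtracted, and spots of a probe were averaged. Of 55681 probes, the 28748 well above background on all 3 arrays of a group were tested with limma 3.58.1 (R 4.3.3), with all 4 groups in one fit and Benjamini-Hochberg adjustment at 0.05. On the knockout arrays, 66 tested probes lacked an array through an outlier spot. Of 36083 gene names, 21971 were in the RefSeq table. A gene is given by its brightest probe, except that the largest changes and the largest differences between genotypes are given by the probe of lowest adjusted p.

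Named genes were *Il18* and the genes with primers in the study, the 8 largest rises and falls past the test without overlap (probe of lowest adjusted p, bounds where dim), 4 members of lowest p and the 2 brightest of each pathway and cell marker list, and the 6 largest differences between genotypes in each direction. Members and lists were chosen with earlier results of these data known. The fit was checked on simulated data, where false calls exceeded the nominal share and most 2-fold changes were missed. Alternatives were other scalings, background correction by normexp, filters, outlier spots, slide and replicate blocks, the knockout arrays alone, a ratio criterion, the mean of a gene's probes and leaving out each array.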

Additional observations from a re-analysis of the deposited data

Results flagged for a closer look

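The test of the difference between the age effects of the 2 genotypes in limma found 576 probes whose change from 6 to 12 weeks of age differed between *Il18*-/- and *Il18*+/+ BAT at an adjusted p below 0.05. The 37 genes named in the report that were among them are given by the log2 change in the knockout minus that in the wild type. Of these, 17 also passed with the slide as a block. Among those 17 the knockout change was the smaller for *Dio2* -7.36, *Hspa1a* -6.98, *Dhrs9* -6.25, *Adamts4* -5.69, *Arntl* -5.26, *Klhl25* -5.09, *Noct* -4.81, *Vdr* -3.44, *Cdkn1a* -3.03, *Nfil3* -2.80 and *Ppargc1a* -2.69. It was the larger for *Ciart* 6.69, *Erdr1* 5.62, *Dbp* 4.63, *Pik3ip1* 4.08, *Gadd45b* 2.60 and *Hlf* 2.39. With the block, the knockout change of *Ppargc1a* rests on 1 array of 6 weeks, at 2.27 beside 0.69 and 0.80 on the others. Without the block, its dimmer probe had a difference of -1.99, which did not pass (limma adjusted p = 0.0835). The value of *Klhl25* is from its dimmer probe, and its brighter probe had -3.02 (limma adjusted p = 8.75e-05). The other 20 did not pass with the slide as a block. There the knockout change was the smaller for *Mfsd2a* -4.72, *Anxa8* -2.89, *Sgk1* -2.09, *Cebpb* -1.77, *Errfi1* -1.76, *Clock* -1.52, *Hmgcs1* -1.42, *Bag3* -1.27, *Cfd* -1.22 and *Ppargc1b* -1.11. It was the larger for *Atoh1* 4.06, *Bhlhe41* 3.84, *Bhlhe40* 2.68, *Syne3* 2.65, *Per2* 2.31, *Per3* 2.02, *Tef* 1.73, *Nr1d2* 1.62, *Trib3* 1.51 and *Herpud1* 1.30. The values of *Ciart*, *Bhlhe41* and *Atoh1* use 6-week knockout signals below background. With values held at the lowest signal of the array among probes well above background, the differences were at least 4.73 for *Ciart* and at least 2.87 for *Bhlhe41*, and 2.72 for *Atoh1*. The value of *Bhlhe41* is from its dimmer probe. Its brighter probe had a difference of 1.68, which did not pass (limma adjusted p = 0.236).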

How the results depend on the processing

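The age effect in the knockout passed for 519 probes, in the wild type for 160, and the difference between them for 576. Taking the 75th percentile over all probes gave 2673, 917 and 1192, quantile normalization 2663, 980 and 1147, and the median of the tested probes, chosen after seeing the data, 2619, 852 and 1169. Testing all 55681 probes without a filter left 72, 5 and 58, and requiring signal on all 12 arrays gave 921 in the knockout and 318 in the wild type. Normexp gave 390 in the wild type. With the slide as a block 44 passed in the knockout and 72 for the difference. The knockout arrays alone, with fewer arrays to estimate the spread, gave 121, and the shared slide alone 9. A ratio above 2 or below 0.5 without a test gave 1647. Leaving out 1 array each gave 117 to 1048 in the knockout, 31 to 785 in the wild type and 163 to 1282 for the difference. A group left with 2 arrays, or with 1 within the slide, is assumed to vary like the others. With the replicate number as a block 370, 103 and 389 probes passed. Same-numbered knockout arrays correlated at 0.01, 0.18 and 0.24 in their deviations. Replicates 2 and 3 correlated best with their own number, and replicate 1 did not. So few arrays cannot show whether same-numbered arrays share more than the number. All other counts lay within 1.5 times the first. The cause of these shifts was not tested. Of the 48 named genes past the test, 16 passed without a filter, 27 with the knockout arrays alone, 33 with the replicate block and 47 with the percentile over all probes. Genes near background, 60 of the tested probes being below it on all knockout arrays, have changes that their signal limits.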
